A study of Mus musculus with 12 samples.

Results

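The E proteins and their inhibitors were followed as 6 genes, Tcf3, Tcf4, Tcf12, Id1, Id2 and Id3, out of 19057 genes that the array annotation names by a single symbol. They were picked by symbol as the helix-loop-helix partners and inhibitors that bear on the factor Lyl1. The annotation gave them 14 of the 45281 probes on the array, and 12 of these were among the 20416 probes that were tested, those that stood out from the negative controls (detection p-value under 0.05) on 3 or more arrays. The 2 probes left out, ILMN_1214146 for Tcf4 and ILMN_2976577 for Tcf12, were detected on 0 of 12 arrays. Each gene had at least 1 tested probe, and the tested probe with the highest mean over all arrays is called its leading probe. Signals of different probes were not set against each other, since each probe has its own brightness.

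The series asks how the fusion oncoprotein NUP98-HOXD13 (NHD13) acts on the self-renewal of thymocytes through Lyl1 and its partner Lmo2. RNA of CD4-CD8 double-negative thymocytes, the earliest stage of T cell precursors in the thymus, was hybridised to Illumina MouseWG-6 v2.0 beadchips. The NHD13 Lyl1 knockout group (3 arrays) carried the NHD13 transgene and lacked Lyl1, the NHD13 group (3 arrays) carried the transgene with Lyl1 intact, and the wild-type group (6 arrays) had neither change. All mice were of the C57 BL/6 background and 2 to 3 months old, per the labels, and 300 ng of RNA was labelled for each array. The transgene is known as one driven in blood cells by regulatory elements of Vav1, so cells other than thymocytes also carry it. No group lacked Lyl1 without the transgene. Whether each array is a different mouse is not stated in the labels, so a p-value here speaks to the spread among these arrays alone.

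E proteins are basic helix-loop-helix transcription factors that bind the sequence CANNTG, the E-box, as pairs with themselves or with each other. In T cell precursors they are known to drive rearrangement and expression of the first T cell receptor chains and to hold cells in check until that receptor signals. Id proteins have the helix-loop-helix but no DNA-binding part, so an E protein bound to an Id protein cannot bind an E-box. Lyl1 and its relative Tal1 reach DNA as pairs with an E protein, in complexes that also hold Lmo2, Ldb1 and a GATA factor.

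Between 17168 and 19464 probes were detected per array, 37.9% to 43.0% of all, and the number of arrays limits the precision of every value. On the normalized log2 scale used for all levels, Lyl1 itself was at 4.75, 4.73 and 4.68 in the knockout arrays (detected on 0 of 3), against 11.18, 11.19 and 11.10 in NHD13 and 6.79 to 7.39 in wild type. Knockout replicate 1 stood apart from the other knockout arrays, with the myeloid enzyme gene Mpo at 14.3, against 5.27 and 4.64 in replicates 2 and 3. Of the genes that define the sort, Cd4 lay near background on its tested probe, at 4.84 to 6.16, and neither Cd8a probe was detected on enough arrays to be tested. All 3 probes of Cd8b1 were detected on every wild-type array, at 9.34 to 13.13, and they parted in the other groups. ILMN_2741169 read 6.94, 7.60 and 6.03 in NHD13 and 4.80, 12.30 and 11.25 in the knockout arrays. ILMN_2664929 read 5.02, 5.11 and 4.90 in NHD13 and 4.77, 9.70 and 8.17 in the knockout arrays. ILMN_1257694 stayed at 11.31 to 13.53 on all arrays. The part of the sort or the cell stage in this was not tested. The T cell gene Cd3e was high on each array except knockout replicate 1. The arrays fell into a class with a narrow spread of undetected probes (wild type 1 to 3 and all knockout arrays) and one with a wide spread (wild type 4 to 6 and all NHD13 arrays). The knockout and NHD13 arrays thus share no class, and only the wild-type arrays tie the classes together. Sex, read from Xist and Eif2s3y, was male for wild type 1 to 3 and knockout replicate 3 and female for the rest.

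The members did not move together. Of the 12 tested probes, 3 passed the test between NHD13 and wild type (1 higher, 2 lower), where 21.0% of all probes passed (9.79% higher, 11.2% lower). Between the knockout group and NHD13, 5 of 12 passed (3 higher, 2 lower), against 21.0% of all probes (11.2% higher, 9.77% lower). Between the knockout group and wild type 2 of 12 passed (1 higher, 1 lower), against 9.57% (4.07% higher, 5.50% lower). A call here is an adjusted p under 0.05 in limma's moderated test, with Benjamini-Hochberg adjustment over all 20416 probes. Groups did not overlap on 4, 5 and 2 of the 12 probes in the same order of comparisons, where 25.7%, 37.5% and 17.0% of all probes had no overlap. The calls fell on Tcf4, Id2, Id1 and 1 probe of Tcf12, and no probe of Tcf3 or Id3 was called in any of the 3 comparisons (0 of 9 results, of which 0 had an unadjusted p under 0.05 in limma's test). In pooled cells, fewer cells of a type and less RNA per cell cannot be told apart.

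**Figure D1:**
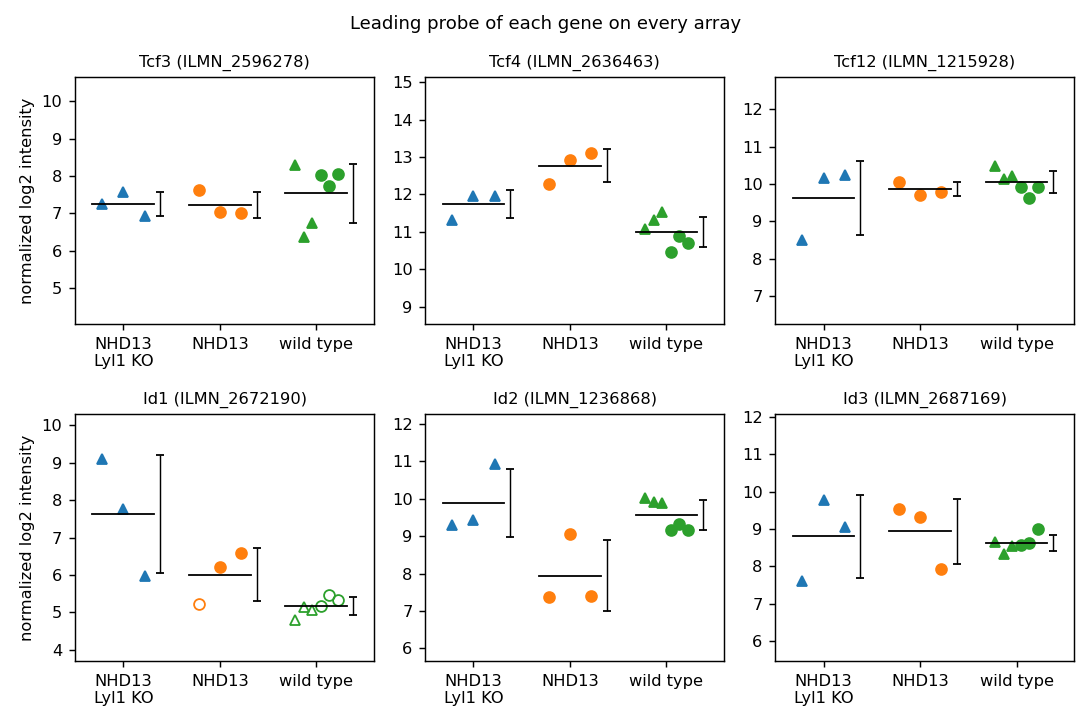
Normalized log2 intensity (y axis) of the leading probe of each gene on the 12 arrays, by group (x axis). Triangles are arrays of the narrow background class and circles of the wide class, open symbols were not detected, and each group has a line at its mean and a bar of 1 SD. Tcf4 is highest in the 3 NHD13 arrays, Id2 lowest there, and Id1 is detected in no wild-type array.

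Tcf4, which makes the E protein E2-2 known best for its part in plasmacytoid dendritic cells, was the E protein gene whose leading probe differed most in NHD13 against wild type. Its leading probe ILMN_2636463 read 12.27, 12.92 and 13.10 in the NHD13 arrays, against 10.47, 10.98 and 11.52 as the lowest, median and highest of the 6 wild-type arrays. Every NHD13 array thus lay above every wild-type array. The difference was 1.77 ± 0.27 on the log2 scale (SE), or 3.42-fold higher (limma's moderated test, adjusted p = 0.00119). It grew to 2.09 when only the wild-type arrays of the same background class were used (adjusted p = 0.00509).

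With Lyl1 absent, Tcf4 stood between the other groups. The knockout arrays read 11.30, 11.96 and 11.95 on ILMN_2636463, below the 12.27, 12.92 and 13.10 of NHD13 with no overlap. The fall was 1.03 ± 0.31 (SE) on the log2 scale, or 2.04-fold (limma's adjusted p = 0.0351). This call ended when NHD13 replicate 2 or 3, or any single knockout array, was left out. The change was then -0.81 without knockout replicate 1 (limma's adjusted p = 0.107) and -0.86 without NHD13 replicate 3 (adjusted p = 0.127). Against wild type the knockout group read 0.75 ± 0.27 higher (adjusted p = 0.103), and the groups overlapped. Wild-type Tcf4 differed by class on this probe, at 11.31 ± 0.22 in the narrow and 10.68 ± 0.20 in the wide class (SD, n = 3 each). The knockout arrays are all of the narrow class, whose wild-type arrays read 11.08 to 11.52. Knockout replicate 1, at 11.30, lay within that range, and replicates 2 and 3 above it. Both comparisons with NHD13 use the same 3 NHD13 arrays.

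The other tested Tcf4 probe did not share this pattern. ILMN_1225984, annotated to a separate cDNA, was detected on 3 of 12 arrays, all wild type, and read 5.26, 5.30 and 5.03 in NHD13, against 4.89 to 5.77 in wild type. Its difference was -0.15 ± 0.21 (limma's adjusted p = 0.672), and over the 12 arrays it correlated with the leading probe at -0.30. Since Tcf4 is a defining gene of plasmacytoid dendritic cells, the other markers of these cells were summed, as normalized intensities off the log scale. The 8 tested markers summed to 4518 to 8741 in the knockout arrays, 5449 to 6449 in NHD13 and 7725 to 10190 in wild type. The sum was thus lower in NHD13 than in wild type. Of the 8, 0 rose and 2 fell in NHD13 against wild type, where 11.6% of all genes rose and 12.6% fell. Without knockout replicate 1 in the fit 5 of the 8 fell, and with median scaling 1 rose and 1 fell. The marker Klk1 was detected on no NHD13 or knockout array. The part of these cells in the Tcf4 level was not tested.

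Tcf3 makes E12 and E47, the E proteins best known from early B and T cells. On ILMN_2596278 it read 7.25, 7.57 and 6.92 in the knockout arrays, 7.63, 7.03 and 7.02 in NHD13, and 6.37, 7.88 and 8.29 as the lowest, median and highest in wild type. The 3 groups overlapped, and the wild-type arrays alone spanned the range of the others. The change was -0.31 ± 0.40 in NHD13 against wild type (limma's adjusted p = 0.627), with a 95% interval of -1.18 to 0.56, and 0.02 ± 0.46 in the knockout group against NHD13 (adjusted p = 0.981), with an interval of -0.98 to 1.02. The second Tcf3 probe, ILMN_2596277, followed the first (r = 0.92 over the 12 arrays) and was likewise not called in the 3 comparisons. Wild-type Tcf3 varied with background class on that probe, at 7.02 ± 0.67 in the narrow class and 7.98 ± 0.05 in the wide class (SD, n = 3 each). Against the wide-class wild type alone, the NHD13 level of this probe fell by 0.73 on the log2 scale (limma's adjusted p = 0.0487), while the leading probe read -0.71 and was not called (adjusted p = 0.0786).

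Tcf12 makes HEB, the E protein that pairs with the products of Tcf3 in thymocytes. Its leading probe ILMN_1215928 read 8.49, 10.16 and 10.24 in the knockout arrays, 10.06, 9.71 and 9.80 in NHD13, and 9.64, 10.03 and 10.47 as lowest, median and highest in wild type. Apart from knockout replicate 1, all arrays lay within the wild-type range. The change was -0.19 ± 0.34 in NHD13 against wild type, -0.22 ± 0.39 in the knockout group against NHD13 and -0.42 ± 0.34 against wild type (limma's adjusted p = 0.730, 0.726 and 0.479).

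A second Tcf12 probe, ILMN_1258340, annotated to another cDNA, fell in the knockout group. It read 6.24, 7.90 and 8.02 in the knockout arrays, 8.11, 9.26 and 8.80 in NHD13, and 8.77, 9.19 and 9.43 as lowest, median and highest in wild type. All 3 knockout arrays were below all arrays of the other groups. Against wild type the change was -1.76 ± 0.37 (SE, limma's adjusted p = 0.0141), and it was called in every setting run on this probe, at -1.18 without knockout replicate 1 (adjusted p = 0.0330). Against NHD13 it was -1.33 ± 0.43 (adjusted p = 0.0438), and -0.76 without knockout replicate 1, which ended the call (adjusted p = 0.111), as did leaving out NHD13 replicate 2 or 3, taking background class as a block, testing without a filter on dim probes (adjusted p = 0.0876) and fitting the compared groups alone (adjusted p = 0.154). The 7 tested T cell markers moved with this array: their summed level was 12367 in knockout replicate 1, against 62998 and 63235 in the other knockout arrays, 45863 to 69006 in NHD13 and 64391 to 69170 in wild type, and their part in the result was not tested. The third tested probe, ILMN_2722602, was detected on 9 of 12 arrays and not called in any comparison, with changes of -0.24, -0.36 and -0.60. Probes of Tcf12 correlated at 0.45 to 0.68 over the arrays, and 1 of the 3 tested probes was called.

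**Figure D2:**
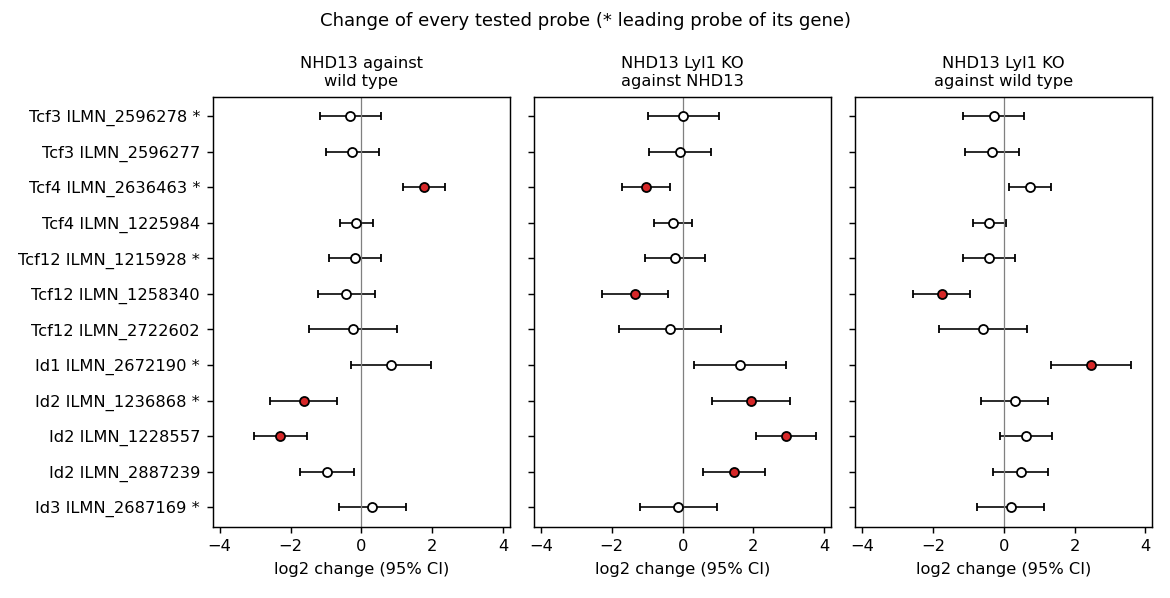
Log2 change (x axis) with its 95% confidence interval for each of the 12 tested probes (rows), by comparison (1 panel each). Red points passed the test and asterisks mark leading probes. Tcf4 rises and Id2 falls in NHD13, and the knockout group differs from NHD13 in the other direction on the same genes.

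Id2 was the member that fell most in NHD13. It encodes the Id protein known for its need in natural killer and innate lymphoid cells, and the promoters of Id2 and of its relative Id3 are shown because these genes parted here, Id2 with calls and Id3 with none. Each run is 300 bases around the start site on the gene's strand, from RefSeq on GRCm38.p6, with any E-box (CANNTG) in capitals. The Id2 window is chr12:25096043-25096342 on the minus strand and the Id3 window chr4:136143572-136143871 on the plus strand.
Id2: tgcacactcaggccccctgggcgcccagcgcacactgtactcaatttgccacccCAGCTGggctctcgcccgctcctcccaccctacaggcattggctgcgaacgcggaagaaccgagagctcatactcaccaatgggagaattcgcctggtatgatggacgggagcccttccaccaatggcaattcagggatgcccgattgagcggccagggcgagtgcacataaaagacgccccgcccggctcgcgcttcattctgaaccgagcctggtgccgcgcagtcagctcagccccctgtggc
Id3: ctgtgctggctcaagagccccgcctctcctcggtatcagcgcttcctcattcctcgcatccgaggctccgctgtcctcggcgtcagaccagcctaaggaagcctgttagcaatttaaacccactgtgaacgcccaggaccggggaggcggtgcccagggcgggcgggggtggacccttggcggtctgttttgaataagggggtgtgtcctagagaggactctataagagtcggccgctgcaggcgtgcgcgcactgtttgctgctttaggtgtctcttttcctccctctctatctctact
The Id2 window held 1 E-box, CAGCTG, whose first base lies 196 bases before the start site, and the Id3 window held 0. Of 32841 RefSeq promoter windows of the same length, 72.3% held a CANNTG and 16.3% a CAGCTG, both of which read the same on either strand. The GATA motif (GATA or TATC) occurred 2 times in the Id3 window and 0 times in that of Id2, and in 57.9% of all windows. These are matches of letters only.

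The 3 Id2 probes gave the same order of group means. On ILMN_1228557 Id2 read 6.70, 7.27 and 7.60 in NHD13, against 9.15, 9.43 and 9.89 as lowest, median and highest in wild type. No NHD13 array came near the wild-type range. The change was -2.29 ± 0.34 (SE), or 4.87-fold lower (limma's adjusted p = 0.00104), and it remained called in every setting tried, with -2.02 against wild type of the same background class (adjusted p = 0.0195).

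With Lyl1 absent, Id2 lay within or above the wild-type range. ILMN_1228557 read 10.03, 9.26 and 11.04 in the knockout arrays, each above all NHD13 arrays. That is 2.92 ± 0.39 higher than NHD13 on the log2 scale, or 7.58-fold (limma's adjusted p = 8.37e-04), and this call too held in every setting tried. Without knockout replicate 1 it was 2.96 (adjusted p = 0.00146). Against wild type the change was 0.64 ± 0.34 with overlapping groups (adjusted p = 0.266) and a 95% interval of -0.10 to 1.38. Replicate 3 was the highest of the knockout arrays. The wild-type arrays of the narrow class, that of the knockout arrays, read 9.62, 9.89 and 9.70. Knockout replicate 2, at 9.26, lay below these.

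The leading Id2 probe, ILMN_1236868, varied more within NHD13. It read 9.30, 9.44 and 10.92 in the knockout arrays, 7.38, 9.06 and 7.41 in NHD13, and 9.16, 9.61 and 10.01 as lowest, median and highest in wild type. NHD13 replicate 2 lay just below the lowest wild-type array, and the other NHD13 arrays far below it. The change was -1.63 ± 0.44 in NHD13 against wild type (limma's adjusted p = 0.0203) and 1.94 ± 0.50 in the knockout group against NHD13 (adjusted p = 0.0185).

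Both calls on that probe depended on the arrays compared. Wild-type Id2 itself differed by class, at 9.94 ± 0.07 in the narrow and 9.22 ± 0.10 in the wide class (SD, n = 3 each). Knockout replicates 1 and 2, at 9.30 and 9.44, lay below all narrow-class wild-type arrays (9.88 to 10.01). Within the wide class the fall in NHD13 was -1.27 (limma's adjusted p = 0.145), and with class as a block the knockout group was 1.22 above NHD13 (adjusted p = 0.232). In the wild type, class and sex also coincide and cannot be told apart. Without NHD13 replicate 1 or 3 the NHD13 change was -1.34 or -1.36 (adjusted p = 0.0805 and 0.107). Against NHD13 the knockout difference was 1.65 without NHD13 replicate 1, 1.67 without NHD13 replicate 3 and 1.42 without knockout replicate 3 (adjusted p = 0.0553, 0.0750 and 0.0607).

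The dimmest Id2 probe, ILMN_2887239, was detected on 0 of 3 NHD13 arrays and on all arrays of the other groups. Knockout arrays read 6.60, 5.54 and 7.37, against 5.10, 5.11 and 4.94 in NHD13, at least 2.12-fold above NHD13 (limma's adjusted p = 0.0254). For a probe not detected in a group, this bound is set by the dimmest detected signal of each array. The call ended without knockout replicate 1 (adjusted p = 0.0557), without knockout replicate 3 (0.0841) and without NHD13 replicate 2 (0.0666) or 3 (0.0769), and with background class as a block (0.266). Against wild type, at 5.51 to 6.67, NHD13 was at least 1.52-fold lower with no overlap but no call (adjusted p = 0.0686).

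Markers of cells known to contain Id2 were set beside these values. The 9 tested natural killer and innate lymphoid markers summed to 13343, 4723 and 15106 in the knockout arrays. Their sums were 13370 to 18963 in NHD13 and 8956 to 12047 in wild type, so higher in NHD13 than in wild type. Of the 9, 2 rose and 3 fell in NHD13 against wild type, with a median change of -0.02. Of all genes 11.6% rose and 12.6% fell there. The 4 tested gamma delta T cell markers, of which 2 rose in NHD13 against wild type, both calls ending with background class as a block, summed to 1172, 6991 and 18082 in the knockout arrays, 18565, 18908 and 15163 in NHD13 and 3783 to 5082 in wild type. The 5 tested markers of conventional dendritic cells summed to 1924 to 2482 in the knockout arrays. Their sums were 2766, 9998 and 2896 in NHD13 and 4637 to 19617 in wild type. Of the 5, 0 were called in NHD13 against wild type or the knockout group against NHD13, where 24.2% and 22.2% of all genes were. In the knockout group against wild type 3 of the 5 fell (1 of 5 without knockout replicate 1), where 3.81% of all genes fell. The part of these cells in the Id2 and Id3 levels was not tested. The 11 tested myeloid markers summed to 73695, 374 and 327 in the knockout arrays, 3203, 38040 and 1690 in NHD13 and 2614 to 14369 in wild type. The highest NHD13 array in both the dendritic and the myeloid sum, replicate 2, is also the NHD13 array with the highest leading Id2 probe. This did not hold on ILMN_1228557, where NHD13 replicate 3 was highest, at 7.60 against 7.27 in replicate 2. The part of myeloid cells was not tested either. Without NHD13 replicate 2 the NHD13 change on ILMN_1236868 was -2.18 (limma's adjusted p = 0.00835). Among the knockout arrays Id2 was highest in replicate 3 on each Id2 probe, while the myeloid sums of replicates 2 and 3 were both low, at 374 and 327.

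Id1, an Id gene that many cells switch on with bone morphogenetic protein signals, was detected only where the transgene was present, though not on every such array. Its probe ILMN_2672190 read 9.12, 7.78 and 5.98 in the knockout arrays (3 of 3 detected) and 5.21, 6.22 and 6.58 in NHD13 (2 of 3 detected), against 4.79 to 5.47 in wild type (0 of 6 detected). All knockout arrays lay above all wild-type arrays, while the knockout and NHD13 arrays overlapped. Id1 was at least 4.68-fold higher in the knockout group than in wild type (limma's adjusted p = 0.0143). The probe met the detection filter through transgenic arrays alone, so its entry into the test rested on the arrays where it was high.

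The knockout values of Id1 were spread widely, and replicate 1 decided part of the size. Without it Id1 was at least 2.79-fold higher than in wild type (limma's adjusted p = 0.0432). Knockout replicate 1 also had the highest myeloid sum, 73695, and the part of these cells in the Id1 level was not tested. Against NHD13 the change was 1.62 ± 0.60 (adjusted p = 0.0751), 0.88 without knockout replicate 1 (adjusted p = 0.236) and 2.44 without knockout replicate 3 (adjusted p = 0.00505). NHD13 against wild type read 0.84 ± 0.52 with overlapping groups (adjusted p = 0.283) and a 95% interval of -0.29 to 1.97.

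Id3, which signals of the first T cell receptor are known to induce, gave no call. Its probe ILMN_2687169 read 7.60, 9.78 and 9.04 in the knockout arrays, 9.53, 9.33 and 7.94 in NHD13, and 8.32, 8.59 and 8.99 as lowest, median and highest in wild type. In both transgenic groups 1 array lay below the whole wild-type range and 2 above it. The change was 0.32 ± 0.43 in NHD13 against wild type, -0.12 ± 0.50 in the knockout group against NHD13 and 0.19 ± 0.43 against wild type (limma's adjusted p = 0.650, 0.888 and 0.822). Their 95% intervals ran from -0.63 to 1.26, from -1.21 to 0.96 and from -0.75 to 1.13.

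**Figure D3:**
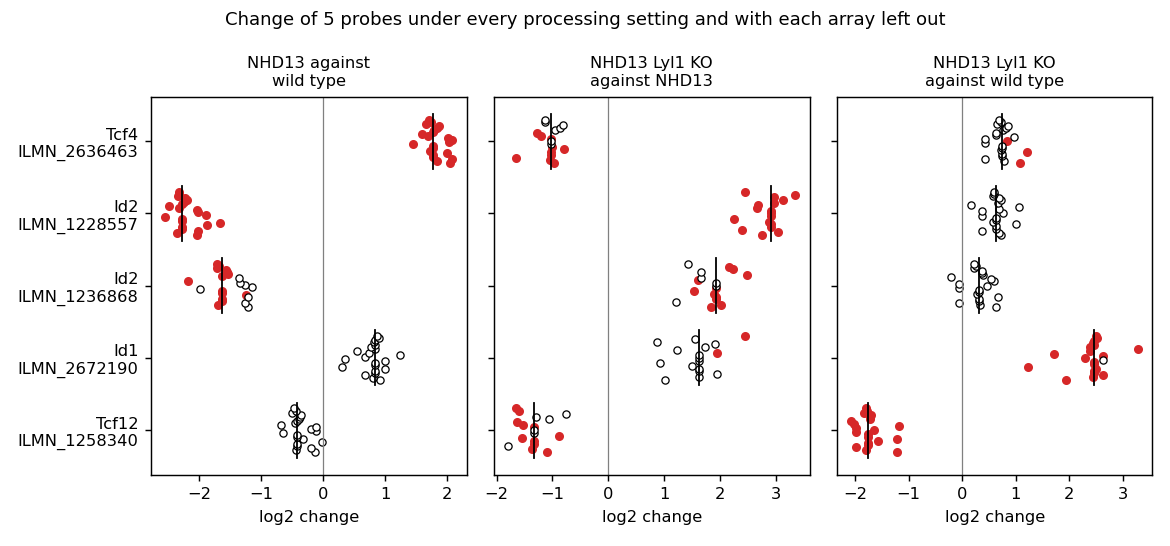
Log2 change (x axis) of 5 probes (rows) under every processing setting and with each array left out in turn, for the 3 comparisons. Red points passed the test, open points did not, and the vertical line is the value reported. Tcf4 and ILMN_1228557 of Id2 stay on 1 side and called for NHD13 against wild type, whereas open points are mixed in for Tcf4 and ILMN_1236868 of Id2 in the knockout group against NHD13.

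Of the binding partners of E proteins, 10 of 16 listed genes were tested. In NHD13 against wild type 3 rose and 1 fell, where 11.6% of all 10497 tested genes rose and 12.6% fell, and the list's median change was 0.22 against 0.00 over all genes. Besides Lyl1, 15.6-fold higher (limma's adjusted p = 1.08e-07), those that rose were Lmo2, which joins Lyl1 and E proteins to GATA factors, and Gata2. Lmo2 read 12.60, 6.21 and 6.37 in the knockout arrays, 10.75, 11.69 and 11.87 in NHD13 and 6.91, 7.89 and 8.73 as lowest, median and highest in wild type. All NHD13 arrays were above wild type, while the knockout group split into 1 very high array and 2 below every wild-type array. Gata2 read 9.99, 4.81 and 4.53 in the knockout arrays, 7.27, 7.98 and 10.53 in NHD13 and was detected in no wild-type array, with NHD13 at least 9.14-fold higher (adjusted p = 0.0192). Gata2 thus met the detection filter through transgenic arrays alone. Ssbp2, which stabilises Ldb1, changed by -0.78 ± 0.20 (adjusted p = 0.0177), a call that ended with median scaling and with background class as a block. The 4 tested erythroid markers, a lineage that also uses these partners, summed to 9881, 246 and 670 in the knockout arrays, 14281, 31690 and 10739 in NHD13 and 448 to 1633 in wild type, and their part in these levels was not tested.

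In the knockout group against NHD13, 1 of the 10 partners rose and 2 fell, where 13.0% of all genes rose and 9.22% fell. Lyl1 was at least 54.0-fold lower, and Ldb1, the scaffold of these complexes, changed by -0.55 ± 0.17 (limma's adjusted p = 0.0343). The call for Ldb1 ended with median scaling and without knockout replicate 1 (adjusted p = 0.0717). Ssbp4 was higher by 1.55 ± 0.38 (adjusted p = 0.0149). Lmo2 was not called, at -3.04 ± 1.31 (adjusted p = 0.121), and was called, at -5.14, without knockout replicate 1 (adjusted p = 2.38e-04). The list's median was -0.43 against 0.06 over all genes, and in the knockout group against wild type -0.06 against 0.08. In that comparison, where 4.49% of genes rose and 3.81% fell, Lyl1 was at least 3.47-fold lower and Ssbp4 higher by 1.20 ± 0.33 (adjusted p = 0.0415), and Ssbp4 was not called without knockout replicate 1 (adjusted p = 0.169).

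Of the coactivators and corepressors, 10 of 12 were tested, with medians of 0.02 in NHD13 against wild type, -0.25 in the knockout group against NHD13 (-0.13 without knockout replicate 1) and -0.16 against wild type. Cbfa2t3, a corepressor of the ETO family that binds E proteins, read 10.50, 10.07 and 9.81 in the knockout arrays, 11.24, 11.94 and 11.65 in NHD13 and 10.27, 10.35 and 10.60 as lowest, median and highest in wild type. NHD13 was above both other groups with no overlap, by 1.23 ± 0.19 against wild type (limma's adjusted p = 0.00126). The knockout group differed from NHD13 by -1.48 ± 0.22 (adjusted p = 0.00131). It was the only 1 of 10 to rise in NHD13, and Hdac2, a histone deacetylase, was the only 1 to fall (-0.76 ± 0.17, adjusted p = 0.00911), which ended with median scaling. Of all genes 11.6% rose and 12.6% fell there.

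Between the knockout group and NHD13, 4 of these 10 fell and 0 rose, where 9.22% of all genes fell and 13.0% rose. Besides Cbfa2t3 these were Kat2b (-1.13 ± 0.28), Ep300 (-1.03 ± 0.26) and Sin3a (-1.01 ± 0.16), with limma's adjusted p = 0.0144, 0.0175 and 0.00202. Kat2b and Ep300 are acetyltransferases that E proteins are known to recruit, and Sin3a is a corepressor scaffold. The 4 calls were also made without knockout replicate 1. Kat2b and Sin3a were lower than wild type too, with changes of -1.32 ± 0.24 and -1.01 ± 0.14 (adjusted p = 0.00702 and 0.00215), and the call of Sin3a there ended with median scaling. Other probes called against wild type were ILMN_2561221 of Ep300 (-1.12, limma's adjusted p = 0.0232) and ILMN_1231686 of Kat2b (-1.11, adjusted p = 0.0207). ILMN_2591641 of Kat2b was not, at -0.56. For Crebbp, also listed, ILMN_2746204 was called at -0.63 against NHD13 and -0.78 against wild type (adjusted p = 0.0276 and 0.0112). ILMN_2695020 of Crebbp was called in neither, at -0.44 and -0.12.

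Genes known to be activated by E proteins in lymphocyte precursors, 17 of 19 tested, did not move as a block. In NHD13 against wild type 2 rose and 4 fell (list median -0.17), where 11.6% of all genes rose and 12.6% fell, and without knockout replicate 1 in the fit the counts were 2 and 6. In the knockout group against NHD13 2 rose and 2 fell (median -0.15), where 13.0% of all genes rose and 9.22% fell, and 3 rose and 1 fell without replicate 1 (median 0.06). Rag1, which makes part of the recombinase of receptor genes, read 8.22, 11.49 and 12.13 in the knockout arrays, 6.68, 6.48 and 5.38 in NHD13 and 10.87, 11.13 and 11.31 as lowest, median and highest in wild type. Ptcra, the alpha chain of the first T cell receptor, read 6.61, 9.93 and 10.21 in the knockout arrays, 5.54, 5.80 and 5.81 in NHD13 and 8.62, 9.10 and 9.56 as lowest, median and highest in wild type. For both, NHD13 lay below all other arrays, and knockout replicate 1 lay between NHD13 and the rest.

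NHD13 differed from wild type by -4.94 ± 0.65 for Rag1 and -3.39 ± 0.61 for Ptcra (limma's adjusted p = 5.46e-04 and 0.00306). The knockout group was 4.44 ± 0.75 above NHD13 for Rag1 and 3.20 ± 0.71 for Ptcra (limma's adjusted p = 0.00250 and 0.00906), and 5.64 and 4.36 without replicate 1. Foxo1, a transcription factor that E proteins induce in B cell precursors, went the other way. It read 6.52, 8.57 and 8.84 in the knockout arrays, 10.04, 10.19 and 9.87 in NHD13 and 8.24, 8.50 and 8.75 as lowest, median and highest in wild type. NHD13 was highest with no overlap, by 1.53 ± 0.39 against wild type (adjusted p = 0.0173), and the knockout group differed from it by -2.06 ± 0.45 (adjusted p = 0.00915), or -1.33 without replicate 1. With background class as a block both Foxo1 calls ended, while Rag1 and Ptcra were still called in both comparisons. A second Foxo1 probe, ILMN_2509340, was not called in either, at 0.83 and -0.94 (adjusted p = 0.206 and 0.209).

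The other calls of the list in NHD13 were Cxcr4, a chemokine receptor (0.81 ± 0.22, limma's adjusted p = 0.0207), Rag2, not detected in NHD13 and at least 1.14-fold lower (adjusted p = 0.0472), and Spib, an ETS factor (-0.82 ± 0.27, adjusted p = 0.0483). With background class as a block these 3 calls ended. Hes1, a Notch target, was lower in the knockout group than in NHD13 (-0.97 ± 0.30, adjusted p = 0.0398), a call that ended with median scaling, with background class as a block and without knockout replicate 1 (adjusted p = 0.0519). Against wild type 3 of 17 fell in the knockout group and 0 rose (median -0.30), where 3.81% of all genes fell and 4.49% rose, and without knockout replicate 1 it was 1 that fell and 1 that rose (median 0.20). They were Bcl11b, the T lineage commitment factor (-1.32 ± 0.37), Spib (-1.20 ± 0.27) and Gfi1, a repressor (-0.58 ± 0.15), with adjusted p = 0.0441, 0.0184 and 0.0303. None of these 3 passed without knockout replicate 1 (adjusted p = 0.0983, 0.0562 and 0.123). A second Spib probe, ILMN_1233927, was not called in either comparison with wild type. Its changes were -0.07 in NHD13 and 0.22 in the knockout group (limma's adjusted p = 0.863 and 0.616).

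**Figure D4:**
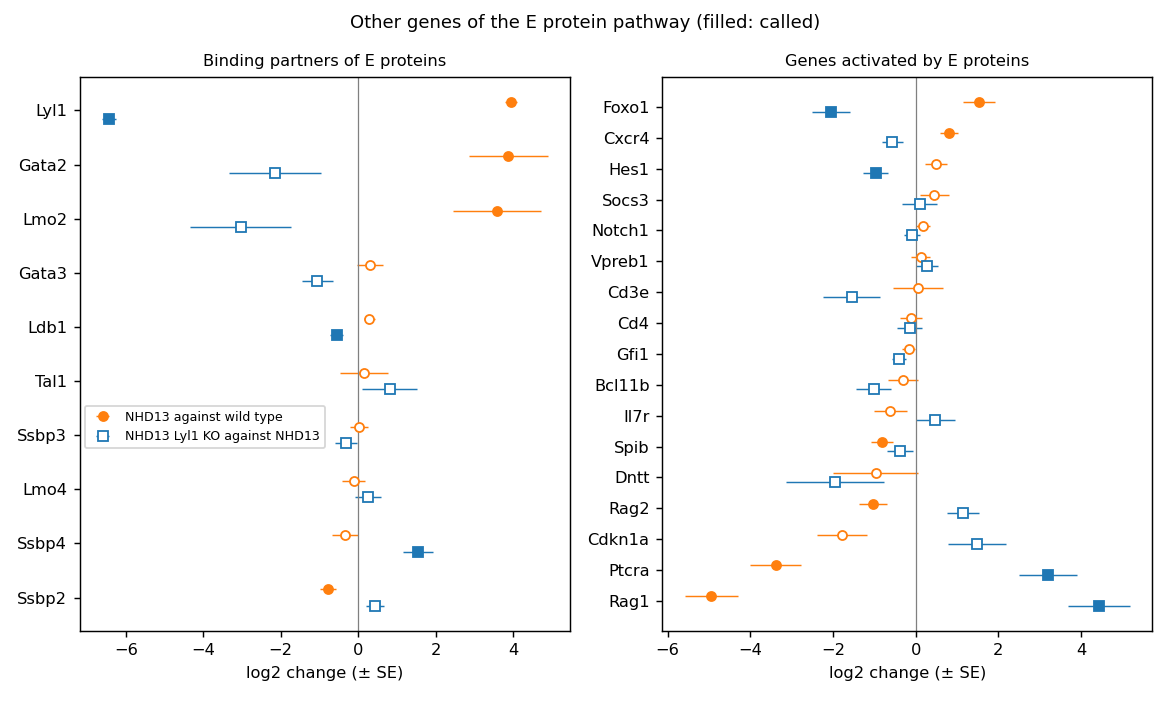
Log2 change ± SE (x axis) of the tested binding partners of E proteins (left) and of genes E proteins activate (right), in NHD13 against wild type (circles) and the knockout group against NHD13 (squares). Filled symbols passed the test. Rag1 and Ptcra lie far below 0 in NHD13 and far above 0 in the knockout group, and Foxo1 lies on the opposite sides.

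Of the genes of signals that induce Id genes, 11 of 15 were tested, and 5 rose and 1 fell in NHD13 against wild type, where 24.2% of all genes were called. The list's median was 0.38 there, -0.33 in the knockout group against NHD13 (0.12 without knockout replicate 1) and 0.06 against wild type. Tgfbr2, a receptor of TGF-beta, read 10.92, 10.49 and 11.16 in the knockout arrays, 12.12, 12.79 and 12.60 in NHD13 and 10.58, 10.80 and 11.01 as lowest, median and highest in wild type. NHD13 stood above both other groups with no overlap. Its change was 1.71 ± 0.20 in NHD13 against wild type and -1.65 ± 0.23 in the knockout group against NHD13 (limma's adjusted p = 2.37e-04 and 0.00104).

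Bmpr2, a receptor of bone morphogenetic proteins, showed the reverse order. It read 10.09, 7.79 and 8.43 in the knockout arrays, 5.21, 6.01 and 5.66 in NHD13 and 7.22, 7.41 and 7.93 as lowest, median and highest in wild type. NHD13 was lowest with no overlap. The change was -1.86 ± 0.39 in NHD13 against wild type and 3.14 ± 0.45 in the knockout group against NHD13 (limma's adjusted p = 0.00687 and 0.00123), or 2.48 without knockout replicate 1.

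The signal transducers Smad3, Smad5 and Nfatc1 also rose in NHD13 against wild type, by 0.94, 0.88 and 0.69 (limma's adjusted p = 0.00180, 0.00978 and 0.0172) on their leading probes. The other Smad3 probe was called too, at 0.93 (adjusted p = 0.0161). The other Smad5 probe was not, at 0.40 (adjusted p = 0.383). Nor were the other Nfatc1 probes, at 0.62, 0.67 and -0.17 (adjusted p = 0.0962, 0.0760 and 0.855). In the knockout group against NHD13, 2 of 11 rose and 4 fell, where 22.2% of all genes were called. Acvr1, another such receptor, rose by 0.90 (adjusted p = 0.0415), which did not pass without knockout replicate 1 (adjusted p = 0.0925). Nfatc1, Smad3 and Smad1 fell by 1.10, 0.97 and 0.80 (adjusted p = 0.00373, 0.00362 and 0.0162) on their leading probes. On other Nfatc1 probes, ILMN_2648704 was called too, at -1.41 (limma's adjusted p = 0.00640), while ILMN_1216522 at -0.64 and ILMN_1224430 at 0.42 were not. The other Smad3 probe was called at -1.03 (adjusted p = 0.0205). Other Smad1 probes were uncalled, at -0.69 (ILMN_1240219), -0.69 (ILMN_2953700), -0.003 (ILMN_1234354) and 0.10 (ILMN_2439293). Against wild type limma called 0 of 11, where 8.30% of all genes were called, and 4 of 11 had an unadjusted p under 0.05. With median scaling 3 rose.

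Genes that act on the stability of E and Id proteins, 7 of 7 tested, were counted by their leading probes. Against wild type 3 fell and 0 rose in NHD13, where 12.6% of all genes fell and 11.6% rose, with a list median of -0.60. Cdc20, which helps target Id proteins for destruction in mitosis, fell by 1.32, Usp1, the protease that removes ubiquitin from Id proteins, by 1.18 and Cops5, a subunit of the COP9 signalosome, by 0.73 (limma's adjusted p = 0.0107, 0.00203 and 0.00274). With median scaling only Usp1 was still called. In the knockout group against NHD13 4 of 7 rose and 0 fell (median 0.72), where 13.0% of all genes rose and 9.22% fell, namely Cdc20 (1.34), Cops5 (1.07), Usp1 (0.96) and Stub1, a ubiquitin ligase (0.72), with adjusted p = 0.0196, 0.00100, 0.0122 and 0.0107. Other probes of the list were mixed in that comparison. ILMN_1249524 of Cops5 was called at 1.05 (limma's adjusted p = 0.00175) and ILMN_2425351 of Usp1 at 1.25 (adjusted p = 0.0375). ILMN_2612206 and ILMN_2867901 of Cdc20 were called at 1.47 and 1.78 (adjusted p = 0.0372 and 0.0285). The remaining Cdc20 and Usp1 probes read 1.67 and 1.01, uncalled (adjusted p = 0.0553 and 0.0980). Some other probes went the other way. ILMN_1218536 of Cops5 was called at -1.23 (limma's adjusted p = 0.0193), and it read -0.02 in NHD13 against wild type. ILMN_2578798 of Huwe1, a ubiquitin ligase gene named after its values were seen, was called at -0.94 (adjusted p = 0.0448), and the second Stub1 probe read -0.18 (adjusted p = 0.665). On the leading probes the 4 were called without knockout replicate 1 as well, Stub1 was not called with median scaling, and Usp1 was not called with background class as a block. Against wild type 1 of 7 fell in the knockout group, Skp2, a ubiquitin ligase subunit (-1.07, adjusted p = 0.0110), and ILMN_1218536 of Cops5 was called there too, at -1.25 (adjusted p = 0.0184).

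Genes most like each member were found by Pearson's r with its leading probe over the 12 arrays. The arrays of a group lie together, so these values hold differences between groups as well as within them. For Tcf4 the closest were Atp2a3 (r = 0.96), Cd99l2 (0.96) and Cd72 (0.95), and each changed by less than 0.01 without knockout replicate 1. For Id2 they were 3830406C13Rik (0.92), Sec24b (0.91) and Errfi1 (0.91), and for Id1 Fstl1 (0.95), Bri3 (0.93) and Rhob (0.92). Tcf12 lay closest to Lat (0.94), Themis (0.93) and Arpp21 (0.92), but these values rested on 1 array and were 0.72, 0.67 and 0.58 without knockout replicate 1. The closest to Tcf3 were Sgta (0.94), Setd1a (0.90) and Phtf1 (0.88), and to Id3 Eif1b (0.89), Lrrc51 (0.88) and Fam71f2 (0.88).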

How the data were processed

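Sorted double-negative thymocytes were measured on 12 Illumina arrays, grouped by the genotype in the labels. The deposited table holds a bead-summarised intensity of each of 45281 probes, per the file headers. Any background subtraction before deposit is not given in the sources used. Beside each stands a detection p-value against negative controls, per the file headers. A log2 table of the same arrays, deposited by the authors, correlated at 0.9998 with the values computed here and served as an alternative. BeadStudio and limma are named, without role, in the submitters' processing notes.

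Intensities were background-corrected and quantile-normalized as neqc of limma 3.58.1 does (R 4.3.3, offset 16), then log2-transformed. The 20416 probes tested had a detection p-value below 0.05 on 3 or more arrays. A linear model of all 12 arrays gave the 3 comparisons, tested with limma's moderated test and adjusted over all kept probes by Benjamini-Hochberg. The code was tested on simulated data. A single gene symbol was available for 34885 probes, several for 18 and no symbol for 10378, and 10497 genes had a kept probe. A probe not detected in a whole group has only a bound there, against the higher of its own level and the lowest detected signal on each array. For each member the probes were all those of its symbol, in each list the up to 4 called genes with the largest change in each direction were named with Lyl1 and Lmo2 always, and the 3 most similar genes of each member were given. The members and lists were chosen with earlier results of these data known. The lists named 155 genes, of which 139 were on the array and 109 were tested. Alternatives were median scaling, the authors' table, no background correction, other filters, array weights, a fit of the compared groups only, background class, sex, a replicate block, other probes and each array left out. Leaving knockout replicate 1 out of the lists and likeness was added after seeing the data. Promoter sequences are RefSeq's on GRCm38.p6, and the Id1 and Tcf4 promoters and protein sequences were not used here.

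Marker lists of 9 other or contaminating cell types were summed per array. Of all genes, 11.6% were higher and 12.6% lower in NHD13 against wild type. The marker counts in that comparison follow, higher then lower. They were 0 and 0 of 7 for T cells, 2 and 3 of 9 for natural killer and innate lymphoid cells, 2 and 0 of 4 for gamma delta T cells, 0 and 0 of 5 for B cells, 0 and 2 of 8 for plasmacytoid and 0 and 0 of 5 for conventional dendritic cells, 0 and 0 of 11 for myeloid cells, 3 and 0 of 4 for erythroid cells and 1 and 0 of 3 for stroma.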

Additional observations from a re-analysis of the deposited data

How the results depend on the processing

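Of 10 called results on member probes, 4 kept their call in every setting run on their own probe: Tcf4 (ILMN_2636463) and Id2 (ILMN_1228557) in NHD13 against wild type, Id2 (ILMN_1228557) in the knockout group against NHD13 and Tcf12 (ILMN_1258340) in the knockout group against wild type. Tcf4 in NHD13 read 1.60 to 2.02 with single arrays left out and -0.15, with no call, on ILMN_1225984, a probe detected on 3 arrays. Id2 in NHD13 on its leading probe lost its call with median scaling (-1.22), array weights (-1.21), background class as a block or within it (-1.27 each), sex as a covariate (-1.14) and probe ILMN_2887239 (-0.98), and read -2.18 to -1.34 with single arrays left out. Tcf4 in the knockout group against NHD13 lost its call with no filter and in a fit of the compared groups only (-1.03 each) and on ILMN_1225984 (-0.26), and read -1.27 to -0.81 with single arrays left out. Id2 in the knockout group against NHD13 lost its call in a fit of the compared groups only (1.94) and with background class as a block (1.22), with 1.42 to 2.49 on leaving out arrays. Calls were gained for Id1 in the knockout group against NHD13 with sex as a covariate (1.95; 0.88 to 2.44 with arrays left out), for Tcf4 in the knockout group against wild type with median scaling (1.20), array weights (1.08) and sex (0.84), and for Tcf12 on ILMN_1258340 (-1.33 against NHD13, -1.76 against wild type). The cause of these shifts was not tested.

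The count of called probes in NHD13 against wild type was 4295 (1999 higher), 2780 within the background class, 4294 (3456 higher) with median scaling and 2246 to 5084 with arrays left out, lowest without NHD13 replicate 3 (2246) and replicate 2 (2361). In the knockout group against NHD13 it was 4284, 1998 in a fit of the compared groups only and 2357 to 4648 with arrays left out (2357 without NHD13 replicate 2, 2549 without replicate 3). In the knockout group against wild type it was 1953 (831 higher), 2996 (2218 higher) with median scaling, 3045 with background class as a block and 1123 to 1613 with arrays left out, lowest without knockout replicates 1 (1123) and 3 (1273). With median scaling the median change of all probes was 0.26 in NHD13 and 0.24 in the knockout group, each against wild type. With quantile normalization these medians were -0.01 and 0.04. The called genes of the pathway lists kept their direction with median scaling and with background class as a block.

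Same-numbered arrays did not deviate together (correlations of -0.15 to 0.17). With transgenic groups of 3 arrays this check cannot exclude a pairing, and the replicate block is given for completeness. With the replicate block Id2 on its leading probe was -1.99 in NHD13 against wild type (limma's adjusted p = 0.0528) and 1.94 in the knockout group against NHD13 (adjusted p = 0.0599), and Id1 was 2.63 in the knockout group against wild type (adjusted p = 0.0853), each without a call.

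Of 36 member results, 17 turned sign in at least 1 setting while uncalled both ways, for example Tcf3 in NHD13 against wild type, at -0.31 and 0.02 with median scaling. Groups of 3 arrays limit the precision, dim probes such as ILMN_1225984 lie near background, and the knockout and NHD13 groups share no background class, so only the wild-type arrays tie the classes together.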
